A study of Mus musculus with 5 samples.

Results

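Chromatin immunoprecipitation followed by sequencing (ChIP-seq) was used to map YAP, Myc, TEAD and RNA polymerase II (RNAPol2) in mouse fibroblasts, and the regions described here are the YAP peaks that held Myc and TEAD but no RNAPol2. They were chosen by peak calls in all 4 lists: a YAP peak was taken when it shared at least 1 bp with a called Myc peak and with a called TEAD peak, and with no called RNAPol2 peak. This gave 388 of the 10293 YAP peaks (3.77%, 95% Wilson interval 3.42 to 4.16). YAP peaks with Myc and TEAD are called YMT peaks, and the 388 are called polymerase-free YMT peaks, where polymerase-free means that no RNAPol2 peak was called across the YAP peak. The cells were 3T9MycER;YAP fibroblasts, an immortalized embryonic line that the labels give as 3T9 of genotype 3T9MycER. All precipitated samples came from cells treated with 400 nM 4-hydroxytamoxifen (OHT), which activates MycER, a form of Myc fused to part of the estrogen receptor that these cells carry. Doxycycline at 2 µg/ml was added as well, to induce YAPS127A, a mutant that escapes Hippo inhibition, from a retroviral vector introduced by infection and hygromycin selection. There was 1 sample per antibody, no untreated sample was used, and the input sample has no peak list here. The Myc antibody is not stated to tell MycER from endogenous Myc.

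YAP has no DNA-binding domain of its own and reaches chromatin through partners, chiefly the TEAD family of DNA-binding proteins. In fibroblasts and epithelial cells YAP and TEAD are best known from enhancers far from gene starts. Myc binds DNA as a dimer with Max and is found mainly at active promoters, where polymerase is abundant, and more weakly at enhancers. The files give coordinates of the mm9 build without gene names, so that distance from annotated genes was not measured, and "distal" is not used for these regions.

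The ChIP libraries held between 20441605 (Myc) and 38345189 (RNAPol2) tags, and all 4 peak lists were called against 1 control library of 60189064 tags. Fold enrichment is the authors' ratio of the ChIP pileup at a summit to the local control level, and it was compared only within the list of 1 factor. Since each antibody has 1 sample, replicate spread could not be measured, and no p-value is given. Intervals of shares are Wilson intervals and intervals of medians come from binomial order statistics, both at 95%. They treat peaks as independent, and they cover counting error only. Peak calls against the control chose the regions, so their heights are a description of the choice and were not tested.

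Polymerase-free regions were the smaller part of the YMT peaks. Of 3111 YMT peaks (30.2% of the YAP list), 388 had no RNAPol2 peak, or 12.47% (11.4 to 13.7), and 2723 overlapped one. Among YAP-TEAD peaks as a whole, Myc was called at 388 of the 4624 without RNAPol2 (8.39%, 7.63 to 9.23) and at 2723 of the 4802 with it (56.7%, 55.3 to 58.1). The 388 peaks rested on 380 distinct Myc peaks and 381 distinct TEAD peaks, since 16 of them shared their Myc peak with another of the 388 and 14 shared their TEAD peak. They formed 380 merged regions. Of all Myc peaks, 11.8% overlapped no RNAPol2. Seen from Myc, the polymerase-free peaks held YAP and TEAD about as often as the others did, in 369 of 1687 cases (21.9%, 20.0 to 23.9) against 2617 of 12667 with RNAPol2 (20.7%, 20.0 to 21.4).

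The 3 proteins stood at unlike heights in their own lists. TEAD was high at these regions, YAP was average and Myc was low. The median TEAD peak was at percentile 86.1 of the TEAD list, with a fold enrichment of 15.6 (interval of the median 13.97 to 16.9, quartiles 10.5 and 24.6). The median YAP peak was at percentile 50.04 of the YAP list, with a fold of 6.49 (6.24 to 6.86, quartiles 5.30 and 8.26). The median Myc peak was at percentile 22.1 of the Myc list, with a fold of 6.35 (6.16 to 6.65, quartiles 5.40 and 7.62). Myc was in the weakest 25% of its list at 214 of the 388 (55.2%, 50.2 to 60.0), and in the strongest 25% at 11 (2.84%, 1.6 to 5.0). TEAD was in the strongest 25% at 276 (71.1%, 66.4 to 75.4). That share was 75.2% over the 9426 YAP peaks with TEAD and 76.2% at YMT peaks with RNAPol2. It was 72.0% at YAP-TEAD peaks without Myc and RNAPol2, so that high TEAD was not particular to the 388. In 50 of the 388 YAP and TEAD were in the strongest 25% of their lists and Myc in the weakest 25%. In 4 all 3 were in the strongest 25% (1.03%, 0.40 to 2.62). That held at 189 of the 2723 YMT peaks with RNAPol2 (6.94%, 6.05 to 7.96).

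**Figure D1:**
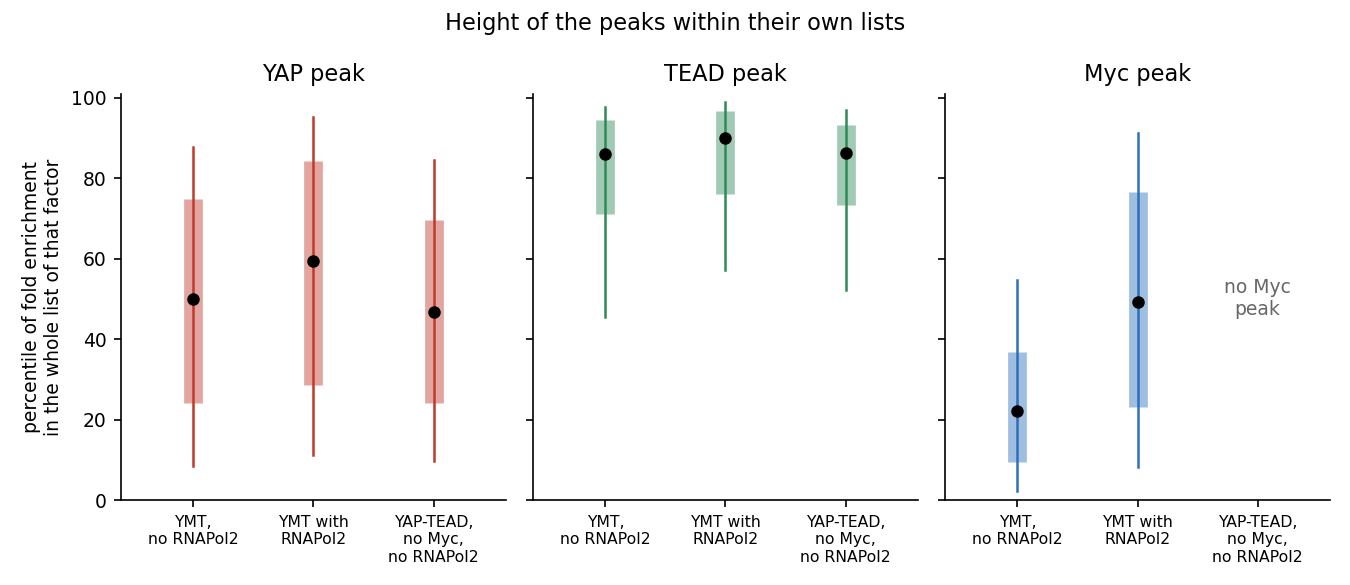
Percentile of the fold enrichment of the YAP, TEAD and Myc peak within the whole list of that factor (vertical axis, 100 the strongest), for YMT peaks without RNAPol2 (388), YMT peaks with RNAPol2 (2723) and YAP-TEAD peaks without Myc and RNAPol2 (4236). Points are medians, broad bars quartiles and thin lines the 10th to 90th percentile; the Myc medians are 22.1 without and 49.1 with RNAPol2, while the TEAD medians lie between 86.1 and 89.9.

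Against YMT peaks with RNAPol2, the largest difference among the 3 heights was in Myc. The median Myc fold there was 9.14 (8.89 to 9.37), so that the ratio of medians, polymerase-free to polymerase-bearing, was 0.695. The same ratio was 0.843 for TEAD, whose median with RNAPol2 was 18.5 (17.8 to 19.1), and 0.937 for YAP, whose median was 6.93 (6.86 to 7.13). The Myc ratio ran from 0.639 to 0.785 over the alternative settings that kept fold enrichment. It was 0.694 for pileup and 0.543 for −log10 p, which is on another scale. The TEAD ratio turned to 1.03 when only the stronger 50% of the YAP, Myc and TEAD lists was kept, which left 24 polymerase-free regions. Myc peaks were also narrower at the polymerase-free regions, with a median of 420.5 bp (409 to 439) against 684 bp (668 to 704) over all YMT peaks with RNAPol2. Fixation was with 1% formaldehyde for Myc, TEAD and RNAPol2 and with an added crosslinker for YAP, which is the same for both classes.

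Against YAP-TEAD peaks that lacked both Myc and RNAPol2, YAP and TEAD fold enrichments were close, while TEAD pileup and the control level were higher. The median TEAD fold was 15.6 in both classes (15.2 to 15.8 without Myc), and the median YAP fold of 6.49 compares with 6.24 (6.24 to 6.37). Median TEAD pileup was 67.5 (62 to 75) against 59 (58 to 61), and median YAP pileup 26 (25 to 28) against 24 (24 to 25). The control level, which is pileup over fold, had a median of 3.85 (3.58 to 3.93) against 3.49 (3.44 to 3.55) in the YAP list. Its part in the higher pileups was not tested. Peaks were wider where Myc was called. The YAP median was 361.5 bp (343 to 382) against 294.5 bp (290 to 300), and the TEAD median was 701.5 bp (673 to 731) against 559 bp (551 to 566). Myc was called at 4.90% of the narrowest 25% of YAP-TEAD peaks without RNAPol2 (3.8 to 6.3) and at 14.7% of the widest 25% (12.7 to 16.8). The shares were 3.66% and 12.6% when both the Myc and the TEAD summit had to lie within 250 bp of the YAP summit, a setting applied here after the data were seen. The part of peak width in these shares was not tested. By 25% steps of YAP fold enrichment the shares with Myc were 8.33%, 7.52%, 7.39% and 10.3%, and by steps of TEAD fold 8.96%, 7.84%, 6.22% and 10.5%. Neither ran in 1 direction, though both were highest in the top step. By steps of YAP pileup the shares were 6.27%, 8.10%, 7.10% and 12.0%. By steps of the control level they were 7.49%, 7.06%, 8.86% and 10.2%, so that the top step was again the highest in each.

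Median Myc height rose with the height of polymerase, and YAP and TEAD heights showed no such order. YMT peaks with RNAPol2 were split by where their strongest RNAPol2 peak ranked in the RNAPol2 list. Median Myc fold was 5.72 where RNAPol2 was in its weakest 25% (141 peaks), 6.55 in the next 25% (198 peaks), 7.09 in the next (534 peaks) and 11.1 in the strongest 25% (1850 peaks). The polymerase-free regions, at 6.35, stood between the first and the next of these steps. Median Myc width was 495, 439 and 506.5 bp in the 3 weaker steps and 838 bp in the strongest, so that most of the difference in width given above lay in the strongest 25%. Over the same 4 steps median YAP fold was 6.79, 6.995, 7.34 and 6.86, and median TEAD fold 20.5, 17.8, 20.6 and 17.8. Fold enrichments of the 4 lists share 1 control library, and its part in this order was not tested.

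**Figure D2:**
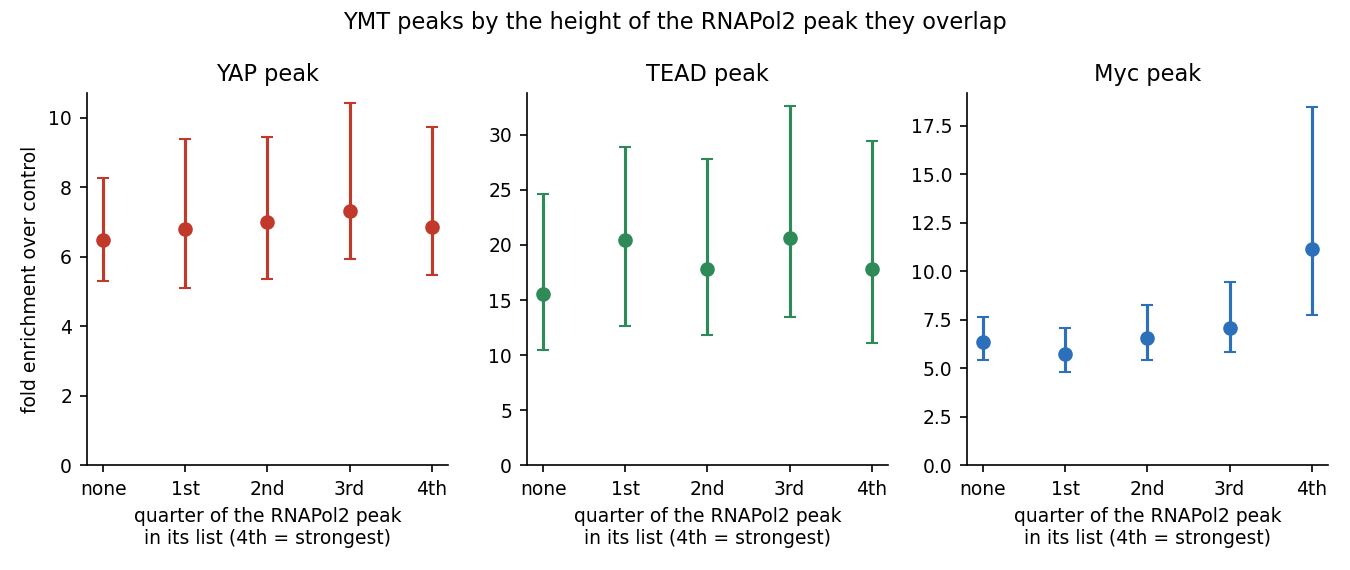
Fold enrichment over control (vertical axes, which differ between panels) of the YAP, TEAD and Myc peak at YMT peaks without RNAPol2 (none) and at those with RNAPol2, by 25% steps of the RNAPol2 list from the weakest (1st) to the strongest (4th). Points mark medians and bars the middle 50% of peaks; Myc rises from 5.72 in the 1st step to 11.1 in the 4th and is 6.35 without RNAPol2.

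Low Myc at these regions was shared by polymerase-free Myc peaks of every kind. Median Myc fold was 6.35 at the 369 polymerase-free Myc peaks with YAP and TEAD, 6.38 at the 651 with TEAD and without YAP, and 6.67 at the 661 with neither. Where RNAPol2 was present the medians were 8.89 with YAP and TEAD (2617 peaks), 11.1 with TEAD and without YAP (6322) and 8.89 with neither (3703). Among the regions themselves, YAP and TEAD heights varied together and Myc height hardly moved with either. Over the 363 regions whose control level was at most 2 times its lowest value, YAP and TEAD fold had a Spearman's rho of 0.646 and a Pearson's r of 0.739. For YAP and Myc rho was 0.0858 (r = 0.0319), and for TEAD and Myc it was 0.0829 (r = 0.0250). Pileups gave 0.656, 0.0633 and 0.0336 for the same pairs. The points share the control library and the base composition of the region, and no p is attached.

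The polymerase-free region of highest YAP signal lay at chr16:30797852-30798509, with a YAP fold of 26.2, a Myc fold of 8.58 and a TEAD fold of 80.5. Its Myc summit was 29 bp and its TEAD summit 2 bp from the YAP summit, and the nearest RNAPol2 peak was 6907 bp away. The next, at chr8:116514354-116514958, had folds of 23.3 for YAP, 10.2 for Myc and 48.1 for TEAD. Both are regions where the 3 summits fell on nearly the same bases.

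The third in YAP height, at chr2:143043564-143044104, carried the highest TEAD fold of the 388, 81.5, with 22.8 for YAP and 5.72 for Myc. The region at chr19:57897860-57898593 had folds of 18.9 for YAP, 5.34 for Myc and 30.2 for TEAD, and its nearest RNAPol2 peak was 211480 bp away. At chr18:56673321-56673773 the folds were 18.7 for YAP, 6.35 for Myc and 19.4 for TEAD. The sixth region, at chr2:6976985-6977725, had folds of 16.5, 6.04 and 53.5 for YAP, Myc and TEAD. Of these 6, only the region on chromosome 8 had a Myc peak above the median of the Myc list, at percentile 56.6, while the TEAD peaks were all above percentile 90.8.

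**Figure D3:**
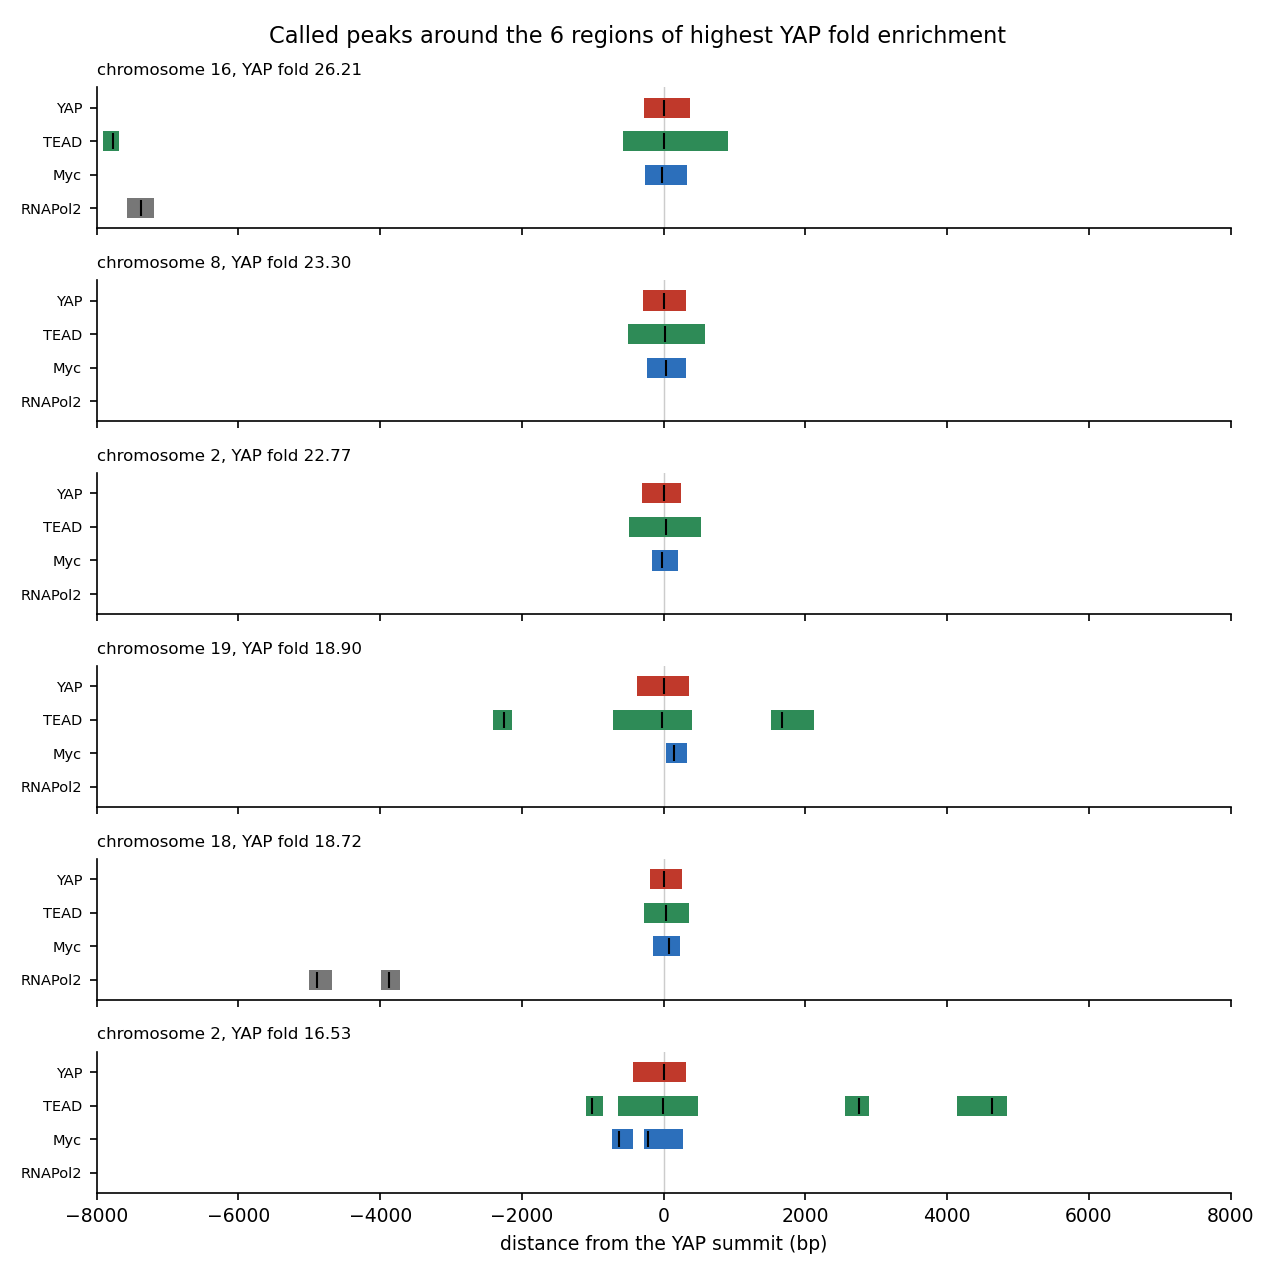
Called YAP, TEAD, Myc and RNAPol2 peaks (bars, rows) and their summits (ticks) within 8 kb of the YAP summit, for the 6 polymerase-free YMT peaks of highest YAP fold enrichment; the horizontal axis is the distance from the YAP summit in bp. In each of the 6 the YAP peak lies within 1 broader TEAD peak that Myc also meets, and RNAPol2 peaks are found inside the window in the first and the fifth panel only, at a gap of 6907 bp and 3531 bp.

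High TEAD did not come with high Myc. Besides the regions on chromosomes 2 and 16 above, the highest TEAD folds were 58.0 at chr3:147010353-147011194, 57.3 at chr18:52822580-52823041 and 55.4 at chr5:4245984-4246832. Their Myc folds were 6.33, 4.82 and 5.08, at percentiles 20.3, 4.05 and 6.01 of the Myc list. Their YAP folds were 13.98, 12.2 and 15.6, all above percentile 91 of the YAP list.

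Of the 5 highest Myc folds, 4 belonged to YAP peaks below the median of the YAP list. The first, 35.8, was at chr15:89012158-89012403, where YAP reached 5.27 and TEAD 11.7. This YAP peak lay at the edge of a Myc peak that ran from 89010536 to 89012307 and itself overlapped RNAPol2, and the RNAPol2 peak ended 84 bp from the YAP peak. The next, at chr7:152242456-152242661, had a Myc fold of 19.1, with 5.93 for YAP and 19.4 for TEAD, and lay 10819 bp from RNAPol2. A pair of YAP peaks at chr9:49788490-49788779 and chr9:49788950-49789240 shared 1 Myc peak of fold 18.2 and 1 TEAD peak of fold 9.23. Their YAP folds were 5.53 and 5.35. The last of the 5, at chr1:102000923-102001417, had a Myc fold of 17.2 and differed from the others in its YAP peak, whose fold of 13.7 was at percentile 94.2. Of the 11 regions with Myc in the strongest 25% of its list, 2 had a Myc peak that overlapped RNAPol2 beside the YAP peak.

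Few regions were strong in all 3 lists, with 1.03% in the strongest 25% of each against 6.94% of YMT peaks with RNAPol2. Ranked by the lowest of their 3 percentiles, the first was again this region on chromosome 1, where the TEAD fold was 28.6. Its TEAD summit fell on the same base as the YAP summit and its Myc summit 5 bp away, and the nearest RNAPol2 peak was 1514569 bp away. It was followed by chr13:44030686-44031039, with 10.95 for YAP, 17.2 for Myc and 24.5 for TEAD, and by chr2:35364732-35365094, with 8.74, 16.8 and 15.6. The remaining regions of this rank were chr1:61914048-61914604, with 8.42, 15.3 and 25.7, and chr9:61218152-61218378, with 7.49, 15.9 and 30.2. The last of them lay 15 bp from an RNAPol2 peak.

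**Figure D4:**
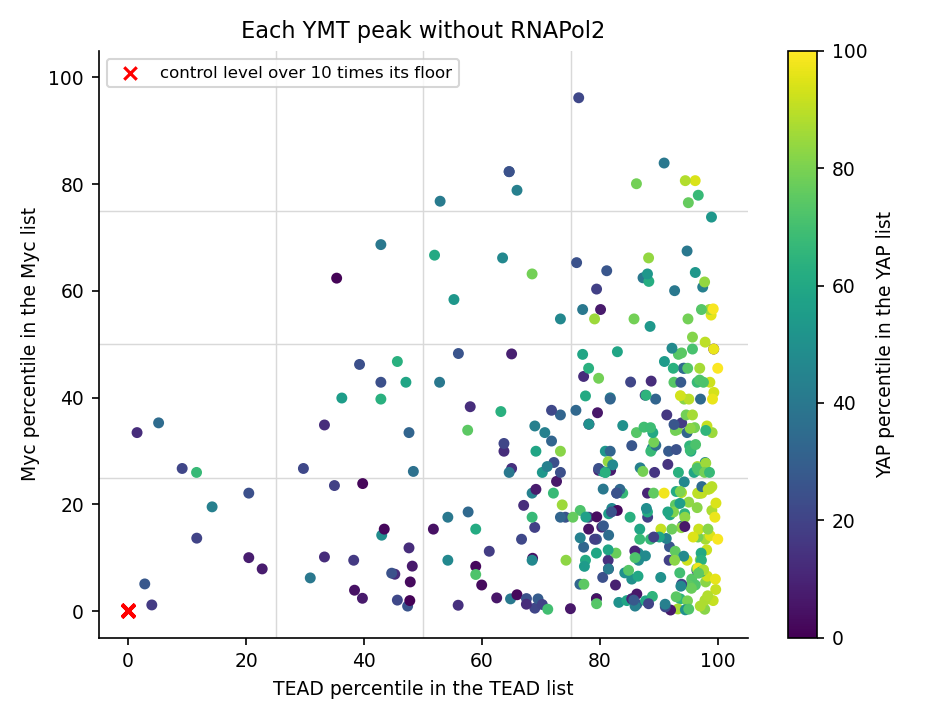
Each of the 388 polymerase-free YMT peaks by the percentile of its TEAD peak in the TEAD list (horizontal) and of its Myc peak in the Myc list (vertical), coloured by YAP percentile; the 8 red crosses, drawn over each other at the lower left, are regions whose control level is over 10 times its lowest value. Most points lie at the lower right, with TEAD in the strongest 25% at 276 regions and Myc in the weakest 25% at 214, and YAP percentiles are mostly higher to the right.

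More than 50% of the Myc and YAP calls at these regions had a −log10 q under 10, unlike the TEAD calls. A −log10 q of at least 10 was reached by Myc at 180 of the 388 (46.4%, 41.5 to 51.4), by YAP at 185 (47.7%, 42.8 to 52.6) and by TEAD at 370 (95.4%, 92.8 to 97.0). The share of the whole list that reached it was 75.8% for Myc, 45.6% for YAP and 65.8% for TEAD. All 3 reached it at 87 regions (22.4%, 18.6 to 26.8). With only such peaks kept, 7.06% of YMT peaks were polymerase-free. The Myc library was the shallowest, and Myc below the calling threshold at other YAP-TEAD peaks would not be seen here.

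Summits placed YAP on TEAD, with Myc farther off. YAP and TEAD summits were a median of 49 bp apart (41 to 58, quartiles 22 and 107), and 287 of 388 pairs lay within 100 bp (74.0%, 69.4 to 78.1). From YAP to the nearest Myc summit the median was 116 bp (104 to 132, quartiles 50.3 and 216), and 166 of 388 lay within 100 bp (42.8%, 37.95 to 47.8). TEAD was nearer to YAP than Myc was in 263 regions (67.8%, 63.0 to 72.2), and in 71.2% of YMT peaks with RNAPol2 (69.4 to 72.8). YAP lay near TEAD in the other classes too. Its median distance to TEAD was 52 bp (49 to 55) at YMT peaks with RNAPol2, with 69.3% within 100 bp. At YAP-TEAD peaks without Myc and RNAPol2 it was 41 bp (40 to 43), with 81.3% within 100 bp. Over all YMT peaks with RNAPol2, the median YAP to Myc distance was 155 bp (148 to 162) and 35.2% were within 100 bp (33.4 to 37.0). All 3 summits fitted within 100 bp at 116 polymerase-free regions (29.9%, 25.6 to 34.6) and at 21.4% of those with RNAPol2 (19.9 to 23.0). The larger YAP to Myc distance lay with the peaks of highest polymerase, where the median was 181 bp in the strongest 25% of the RNAPol2 list, and 112, 119 and 116 bp in the 3 weaker steps, close to the 116 bp without RNAPol2. Myc peaks were also widest in that strongest 25%, and the part of width in the distances was not tested.

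The position of Myc was more often at an end of the row of summits than in its middle. YAP was the middle summit in 161 regions (41.5%), TEAD in 155 (39.9%) and Myc in 63 (16.2%), with ties in 9. At YMT peaks with RNAPol2 the shares were nearly the same, 41.2%, 41.0% and 16.5%. Myc is the middle summit only where YAP and TEAD are the pair farthest apart, so these shares depend on the distances given above. The YAP summit lay inside the TEAD peak in 381 regions (98.2%) and inside the Myc peak in 308 (79.4%, 75.1 to 83.1). The YAP peak as a whole lay inside its TEAD peak in 307 regions (79.1%), but inside its Myc peak in 85 (21.9%, 18.1 to 26.3). At YMT peaks with RNAPol2 these shares were 79.2% and 44.1% (42.3 to 46.0). Median widths at the 388 were 701.5 bp for TEAD, 420.5 bp for Myc and 361.5 bp for YAP. With RNAPol2 the Myc median was 684 bp. A YAP peak fits more easily in a wide peak, and the part of width in these shares was not tested. At 13 regions the YAP and Myc peaks shared under 50 bp.

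Most polymerase-free regions lay more than 10 kb from polymerase. The median gap to the nearest RNAPol2 peak was 31470.5 bp (26156 to 41976), with quartiles of 9626 and 95282 bp. RNAPol2 was found within 10 kb of 100 regions (25.8%, 21.7 to 30.3) and within 100 kb of 297 (76.5%, 72.1 to 80.5). At YAP-TEAD peaks without Myc and RNAPol2 the median gap was 39671 bp (37184 to 42919, over the 4235 on sequences that had an RNAPol2 peak), and 23.7% had RNAPol2 within 10 kb (22.4 to 25.01) and 70.9% within 100 kb (69.5 to 72.2). The nearest RNAPol2 peak was of ordinary height, with a median RNAPol2 fold of 6.23 over the 355 distinct peaks and 5.57 in the whole list. Of these 355, 171 overlapped Myc (48.2%, 43.0 to 53.4) and 122 overlapped YAP (34.4%, 29.6 to 39.5). The RNAPol2 peaks nearest to YAP-TEAD peaks without Myc and RNAPol2 were close to this, with 46.4% overlapping Myc (44.6 to 48.2) and 29.4% overlapping YAP (27.8 to 31.1). Over all RNAPol2 peaks the shares were 23.6% and 9.15%.

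**Figure D5:**
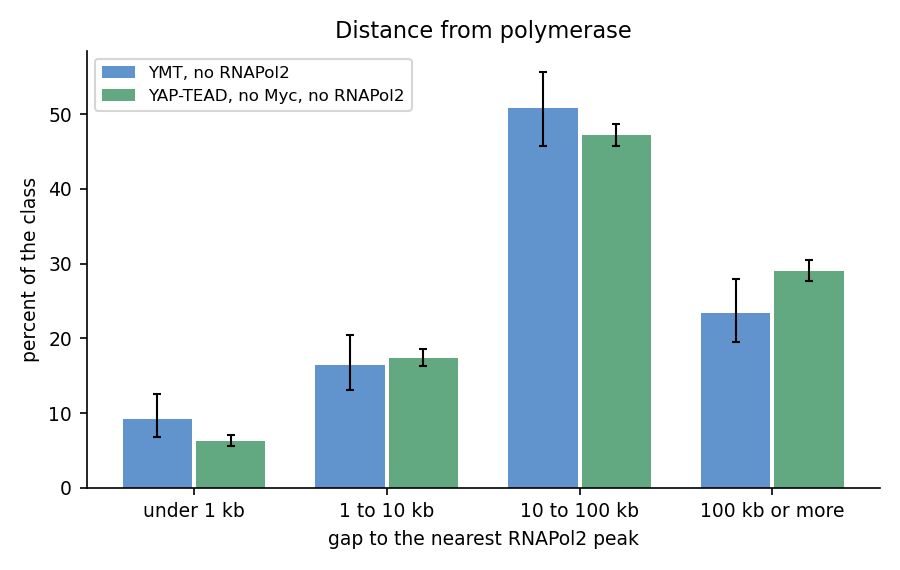
Percentage of polymerase-free YMT peaks (blue, 388) and of YAP-TEAD peaks without Myc and RNAPol2 (green, 4236) by the gap to the nearest RNAPol2 peak (horizontal axis), with 95% Wilson intervals. The 10 to 100 kb bin is the fullest in both, 50.8% and 47.2%, and under 1 kb the shares are 9.28% and 6.30%.

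A small part of the regions lay at the edge of polymerase peaks. The gap was under 1 kb at 36 of the 388 (9.28%, 6.78 to 12.6) and under 100 bp at 13. At 24 the merged YAP, Myc and TEAD region touched RNAPol2 although the YAP peak did not. The nearest was chr12:112659767-112660120, 10 bp from RNAPol2, with folds of 6.99 for YAP, 5.40 for Myc and 12.0 for TEAD. The others just inside the limit were the region at 61218152 on chromosome 9, given above, and chr19:53926887-53927393, 18 bp away, with folds of 8.61, 4.87 and 27.0. Just outside it, the YMT peak at chr13:49283596-49283813 shared 4 bp with RNAPol2 and had folds of 5.74 for YAP, 7.62 for Myc and 6.93 for TEAD. Those at chr15:59609397-59609633 and chr1:166711390-166711629 shared 5 and 26 bp, with folds of 3.62 and 5.62 for YAP, 6.39 and 11.4 for Myc, and 17.3 and 22.6 for TEAD. The 3 YAP folds just inside the limit were above the 3 just outside it, while the Myc and TEAD folds of the inside and outside regions overlapped. These few regions were picked by position and do not stand for their classes. Median YAP fold was lower, 6.21, in the 36 regions under 1 kb than at YMT peaks with RNAPol2, 6.93.

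Among the polymerase-free regions, median TEAD fold was higher in those farther from polymerase. Median TEAD fold was 12.0 in the 36 regions under 1 kb from RNAPol2, 14.3 in the 64 at 1 to 10 kb, 16.6 in the 197 at 10 to 100 kb and 17.3 in the 91 at 100 kb or more. Over the same bins median YAP fold was 6.21, 6.51, 6.38 and 6.86, and median Myc fold 6.05, 6.40, 6.35 and 6.44. YAP-TEAD peaks without Myc and RNAPol2 had median TEAD folds of 12.9, 15.2, 15.2 and 16.8 in these bins, so that the low value nearest to polymerase was found there as well. YMT peaks that overlapped RNAPol2 had a median TEAD fold of 18.5, above every bin. Over all YMT peaks TEAD therefore did not rise with distance from polymerase. The 5 farthest regions were chr17:59513258-59513808, 2096795 bp from RNAPol2, the region on chromosome 1 at 102000923, chr15:48621108-48621561 (1456493 bp), chr8:7919365-7919985 (692723 bp) and chr19:48659522-48660165 (664550 bp). Their Myc folds were 8.03, 17.2, 7.76, 6.06 and 3.48, and their TEAD folds lay between 11.5 and 28.6.

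Polymerase-free YMT peaks mostly stood alone, as did YAP peaks as a whole. The median gap to the next YAP peak was 28626.5 bp (24034 to 37109), compared with 15599 bp at YMT peaks with RNAPol2 (14275 to 17378) and 34102 bp at YAP-TEAD peaks without Myc and RNAPol2 (31730 to 36600). Another YAP peak lay within the default stitching distance of ROSE, a program that joins enhancers into super-enhancers, at 126 of the 388 (32.5%, 28.0 to 37.3). The shares in the other classes were 46.1% (44.2 to 48.0) and 29.0% (27.7 to 30.4). Over all YAP peaks the median gap was 24759 bp (23679 to 26023) and the share 36.7% (35.8 to 37.7). Without chromosome 15, 26.9% of the polymerase-free YMT peaks had another YAP peak within this distance. The other classes were not recomputed without chromosome 15. When YAP peaks were linked at this distance, 28 of the 388 fell with another of their kind, in 14 groups of 2, and 30 fell with a YMT peak that overlapped RNAPol2. In file order the first 3 such groups were at chr13:52873378-52874406, where the 2 were the only YAP peaks, at chr15:32621466-32623284, with 3 YAP peaks, and at chr15:66913369-66942482, with 5 YAP peaks. Their highest TEAD folds were 16.9, 12.6 and 26.2 and their highest Myc folds 6.35, 4.45 and 7.15.

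A few of the 388 were regions of very high control signal. At 8 of them the control level, computed as pileup over fold, was 32.7 to 52.1 times its lowest value in the YAP list, and none of the others exceeded 3.06 times. These 8 had YAP pileups of 182 to 297, Myc pileups of 197 to 312 and TEAD pileups of 176 to 291, while their folds were only 1.5 to 1.91 for YAP, 2.00 to 3.14 for Myc and 1.54 to 1.82 for TEAD. They include the lowest YAP folds of the 388, at chr9:2999931-3000426 (1.5), chr9:3035623-3036028 (1.70) and chr9:3025316-3025790 (1.74). The other 5 lay on chromosomes 2, 9 and 15 and on an unplaced sequence. Leaving out every YAP peak with a control level over 2 times its lowest value removed 25 of the 388 (6.44%, 4.40 to 9.34). Such peaks made up 3.73% of all YAP peaks (3.38 to 4.11). They were 3.82% of YMT peaks with RNAPol2 (3.16 to 4.61) and 3.21% of YAP-TEAD peaks without Myc and RNAPol2 (2.72 to 3.79). The median folds of the remaining 363 were 6.57 for YAP, 6.38 for Myc and 15.9 for TEAD.

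The spread over the chromosomes with most regions was near that of the YAP list. Chromosome 15 held 64 of the 388 (16.5%, 13.1 to 20.5) and 14.2% of all YAP peaks, chromosome 2 held 32 (8.25%) and 8.66% of all YAP peaks, and chromosome 11 held 29 (7.47%) and 7.07%. Of the YAP-TEAD peaks without RNAPol2, Myc was called at 64 of 568 on chromosome 15 (11.3%, 8.92 to 14.1) and at 324 of 4056 elsewhere (7.99%, 7.19 to 8.86). The median control level of YAP peaks was 1.55 times its lowest value on chromosome 15, and between 1.00 and 1.46 times on the other numbered chromosomes and X. Its part in the share on chromosome 15 was not tested. None of the 388 lay on chromosome X. There, Myc was called at 0 of 74 YAP-TEAD peaks without RNAPol2. An upper bound of 3 counts, used here in place of a Wilson limit, allows a share of up to 4.05%. The X chromosome nevertheless carried 281 Myc peaks, 18 of them polymerase-free, and 12 YMT peaks with RNAPol2.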

How the data were processed

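ChIP-seq peak lists of YAP, Myc, TEAD and RNAPol2 (1 sample each) were used. Per the submitters' processing notes, reads were aligned with BWA 0.6.2 to mm9 and peaks were called with MACS2 2.0.9. The file headers show that the authors ran the caller in narrow mode on every sample by itself, with a p-value cutoff of 1e-05 and at most 2 tags kept per position, and scaled the larger library towards the smaller. The deposited values are the pileup signal, its fold enrichment (a ratio over the largest of a genome average and control windows of 1000 and 10000 bp), the −log10 p-value and the −log10 q-value. Chromatin fragments averaged 250 bp. Whether the control library is the deposited input is not given in the sources used here.

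Overlaps of at least 1 bp were computed in Python 3.11.15 (pandas 2.3.3, numpy 2.4.6), intervals with scipy 1.17.1 and figures with matplotlib 3.10.9. Where a YAP peak met several Myc or TEAD peaks, the highest gave the height and the nearest summit the distance. Percentiles rank fold enrichment in the full list. Routines were tested on simulated lists, and bedtools intersect also counted 388 regions. Named regions were the 6 of highest YAP fold, the 5 highest in Myc, in TEAD, in the lowest of the 3 percentiles and in gap to RNAPol2, the 3 nearest to RNAPol2 on each side of the limit, the 3 lowest in YAP and the first 3 of the largest groups. The regions, the classes and these rules were chosen with earlier results of these data known. Genes, motifs and sequences were not analysed here, because the reference tables used are of GRCm38.p6 and the peaks of mm9.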

Additional observations from a re-analysis of the deposited data

How the results depend on the processing

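No paired analysis was possible because each antibody has 1 sample, and no replicate could be left out. Of 167 values recomputed over 18 results and 12 settings, 122 moved by less than their 95% counting interval (counts by less than 1.5 times), 44 moved further and 1 changed direction. The causes were not tested. Every value stayed within these limits when peaks with a control level over 2 times its lowest value, or mitochondrial, Y and unplaced sequences, were left out, and the 3 height ratios also did when pileup replaced fold. The Myc library had the fewest tags, and the effect of depth on the calls was not tested.

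With only the stronger 50% of the YAP, Myc and TEAD lists, 24 regions were left, 3.16% of YMT peaks. Their median folds were 8.74 for YAP, 11.1 for Myc and 25.6 for TEAD, and the ratios to YMT peaks with RNAPol2 were 0.785 for Myc and 1.03 for TEAD, the one change of direction. Myc in the weakest 25% of the full list fell to 0% by construction, and 0% lay on chromosome 15. The median gap to RNAPol2 was 46645.5 bp, the summit distances from YAP 36 bp to TEAD and 102 bp to Myc, the share with another YAP peak within the ROSE distance 20.8% and the control level 1.00 times its lowest value.

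With a −log10 q of at least 10 in the 3 lists, 87 regions were left, 7.06% of YMT peaks. The medians were 8.11 for YAP (ratio 0.873), 7.94 for Myc (ratio 0.778) and 24.1 for TEAD, with 17.2% of Myc peaks in the weakest 25%, a gap of 44614 bp, a YAP to TEAD distance of 28 bp and a neighbour share of 18.4%. With only the stronger 50% of RNAPol2 peaks the count was 727, or 23.4% of YMT peaks. The Myc ratio was then 0.639, the TEAD median 17.1, the gap 43458 bp, the share within 10 kb of RNAPol2 21.3%, the neighbour share 38.9% and the control level 1.27.

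An overlap of 50% of the shorter peak gave a YAP to Myc distance of 99 bp. Summits within 250 bp gave 93 bp, a polymerase-free share of 15.3% and a Myc ratio of 0.768, and, as a setting added after the data were seen, 3.66% and 12.6% of the narrowest and widest YAP-TEAD peaks with Myc. Requiring no RNAPol2 within 1000 bp gave a share of 11.3%, with 18.2% within 10 kb, and none at the merged region 20.9% within 10 kb. Without chromosome 15 the neighbour share was 26.9% and the control level 1.09. With −log10 p in place of fold the Myc ratio was 0.543.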
